A study of Saccharomyces cerevisiae with 6 samples.

Results

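Yeast disposes of superoxide, peroxides and nitric oxide through a small set of enzymes and their regulators, and 10 of these genes were examined in snf2Δ mutant and wild type (wt) cells: YHB1, SOD1, SOD2, CCP1, CTA1, GPX1, GPX2, HYR1, YAP1 and SKN7. They were chosen by name for the reactions they serve, with earlier results of the same libraries known, and all 10 were found among the 7127 features of the count table. RNA was sequenced from 3 snf2Δ and 3 wt samples of Saccharomyces cerevisiae harvested in log phase (OD600 0.4 to 0.8) from the rich medium YPD at 30 °C, to ask how transcript levels change without Snf2, the ATPase of the nucleosome remodeler Swi-Snf. Both genotypes were HHY221, a haploid W303 strain of mating type a made for anchor-away experiments, so the snf2Δ cells (snf2Δ::natMX6) and the wt cells alike carried TOR1-1, fpr1Δ::loxP-LEU2-loxP and rpl13a::RPL13A-2×FKBP12-loxP, and no rapamycin was added. Nothing in the labels tells whether replicates were separate cultures or independent deletion clones, and p-values therefore cover the spread among these samples, which may be technical.

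Superoxide leaks from respiration and is turned into hydrogen peroxide by superoxide dismutases, one with copper and zinc in the cytosol (Sod1) and one with manganese in the mitochondrial matrix (Sod2). Peroxide is then removed by catalases (Cta1 in peroxisomes, Ctt1 in the cytosol), by cytochrome c peroxidase in the mitochondrial intermembrane space (Ccp1) and by thiol peroxidases, among them the 3 glutathione peroxidase homologs Gpx1, Gpx2 and Hyr1 (also known as Gpx3). Nitric oxide is oxidized to nitrate by the flavohemoglobin Yhb1. Hyr1 can also pass the peroxide signal to the transcription factor Yap1, a relay not examined in the W303 cells used here. Yap1 collects in the nucleus when oxidized and acts at many of its targets together with Skn7. The activity of both factors is thus set largely on the protein and not on the transcript.

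The libraries held 4134546 to 4667287 counts in snf2Δ and 4627141 to 6708036 counts in wt. SNF2 itself had 6, 9 and 7 counts in the snf2Δ libraries, against 363, 298 and 365 in wt. Markers of a cells were present in every library, with a summed level of 1506 to 1698 CPM in snf2Δ and 1463 to 2407 CPM in wt over 6 genes, where CPM are counts scaled to a common library size by TMM, edgeR's correction for library composition. The pheromone genes MFA1 and MFA2 fell among them, by 0.99 ± 0.23 and 0.76 ± 0.22 on the log2 scale (SE), but by only 0.62 and 0.35 without wt replicate 3 (adjusted p = 0.0056 and 0.0404), and the call of MFA2 was lost without snf2Δ replicate 1 or 3 (adjusted p = 0.078 and 0.0895). The alpha-factor genes MF(ALPHA)1 and MF(ALPHA)2 stood at no more than 0.691 CPM in any library. Of the other alpha-cell markers, STE3 had 2.56 ± 0.16 CPM in snf2Δ and 1.95 ± 1.14 CPM in wt (SD, n = 3 each). SAG1 was well above these, at 48.3 ± 1.19 CPM in snf2Δ and 42.4 ± 5.90 CPM in wt, so the alpha-cell markers were not all low. The third wt library stood apart from the other wt libraries on the second principal component, which held 9.98% of the variance, whereas the genotypes parted on the first with 76.5%. The third wt library also held the highest wt level of YHB1, SOD1, CCP1, CTA1, HYR1, YAP1 and SKN7, and the count of called members was 5 with or without it.

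Of the 10 genes, 2 rose in snf2Δ (SOD1 and CCP1), 3 fell (YHB1, GPX1 and GPX2) and 5 did not pass the test (SOD2, CTA1, HYR1, YAP1 and SKN7) in edgeR's quasi-likelihood test at a Benjamini-Hochberg adjusted p under 0.05 over 5641 genes. Over all genes tested the same threshold called 34.4% (16.6% rose and 17.8% fell), and the difference from 5 of 10 was not tested. Only YHB1 also went past 2 log2 units in either direction, 1 gene of 10 beside 2.82% of all genes (1.06% rose and 1.76% fell that far). The levels of the genotypes did not overlap for 6 of the 10 genes, 4 lower and 2 higher in snf2Δ, beside 46.6% of all genes (24.1% lower and 22.4% higher). The median log2 fold change was −0.14 over the 10 genes and −0.02 over all genes, with falls and rises among the 10 and no common direction.

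**Figure D1:**
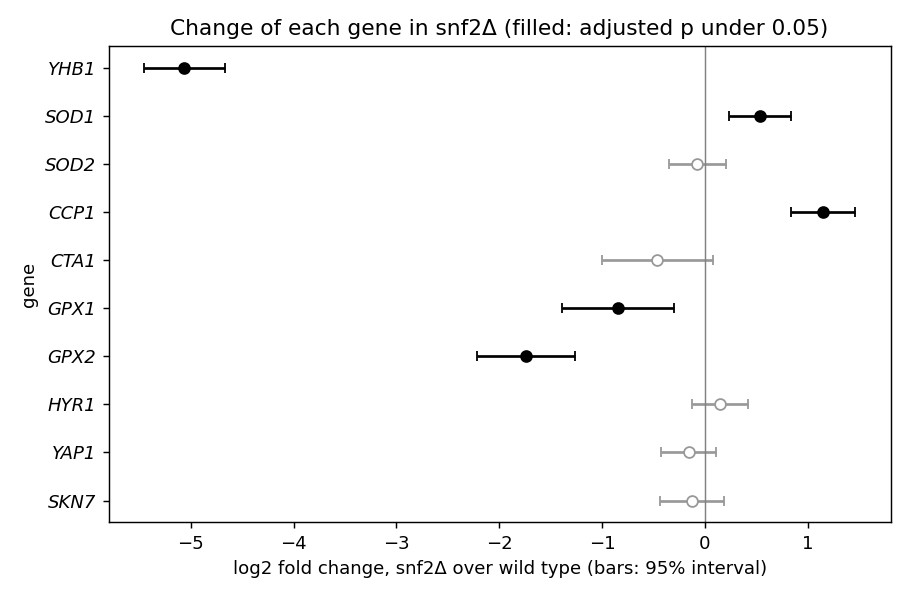
Log2 fold change of each of the 10 genes, snf2Δ over wt, with its 95% interval as a bar (edgeR, n = 3 each), filled where the adjusted p was under 0.05. YHB1 stands far to the left at −5.06, GPX1 and GPX2 also lie left of 0, and SOD1 and CCP1 lie to the right of it.

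YHB1 (YGR234W, chromosome VII, 959904 to 961103, plus strand, R64 assembly) was by far the most changed of the genes. Its level was 78.3, 81.7 and 83.5 CPM in the snf2Δ libraries, against 2517, 2453 and 3153 CPM in wt. The 3 snf2Δ libraries lay within a few CPM of each other and far below every wt library. The mean fell to 81.2 ± 2.65 CPM in snf2Δ, against 2708 ± 387 CPM in wt (SD, n = 3 each), which is 33.4-fold lower (log2 fold change −5.06 ± 0.18, SE, 95% interval −5.45 to −4.67, adjusted p = 3.44e-11). Among the 5641 genes tested it held rank 6 from the lowest log2 fold change. In wt it was one of the most abundant transcripts of the cell, at rank 34 to 37 by CPM among the features of each library, whereas in snf2Δ its rank was 2066.5 to 2181.5. The transcript was not lost, with 340, 373 and 336 reads in the snf2Δ libraries, against 12184, 12020 and 19666 reads in wt. In bulk RNA, a lower level in every cell and a loss in some of the cells cannot be told apart. Under the 15 other settings tried, each library left out among them, the log2 fold change was −5.13 to −4.94.

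**Figure D2:**
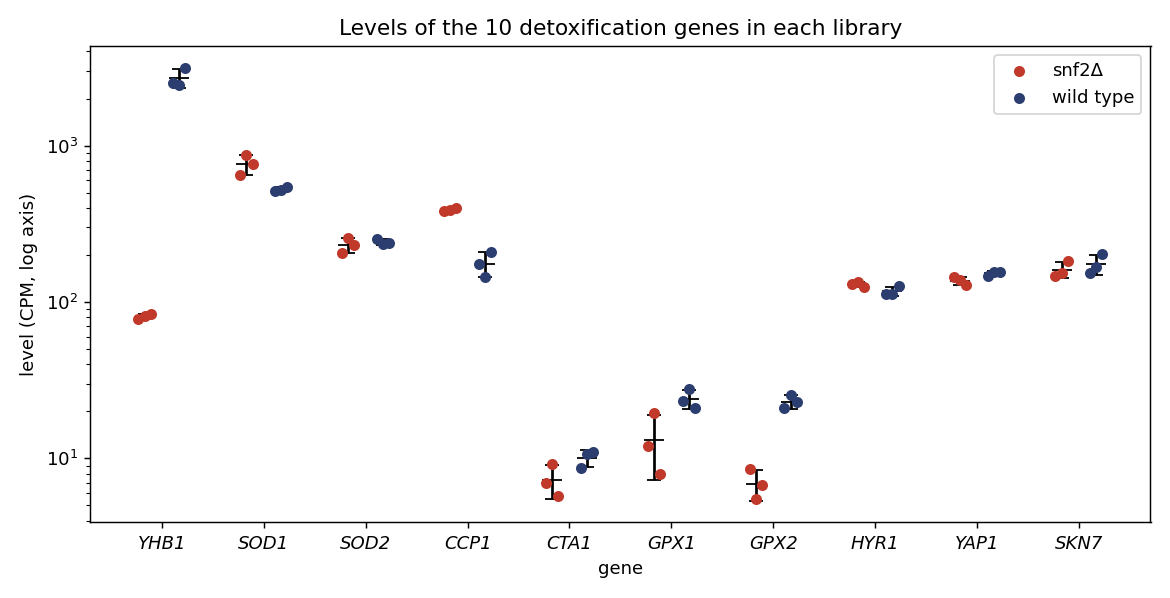
Level of each gene in CPM on a log axis, with 1 point per library, the mean as a horizontal mark and the SD as a bar (n = 3 each), snf2Δ in red and wt in blue. YHB1 lies at 78.3 to 83.5 CPM in snf2Δ and at the top of the scale in wt (2453 to 3153 CPM), CCP1 is higher in all 3 snf2Δ libraries, and the points of SOD2, CTA1, HYR1 and SKN7 overlap.

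The upstream DNA of 9 of the genes, all but GPX2, was searched for the sites of factors known to act on them, in the 500 bases that end 101 bases before the start codon. Sites searched on both strands were TTACTAA (the Yap1 element), CCCCT (the stress response element of Msn2 and Msn4), TATAAA (the core promoter box), the element of the heme-responsive factor Hap1, and the Fzf1 element, a longer site of Fzf1, the activator of the nitric oxide and sulfite response. The Yap1 element was present before 5 of the 9 genes and before 10.9% of 6004 protein-coding genes. The sites were picked as those of factors known to act on these genes. A share above that of all genes is therefore no independent finding, here or for the pair of elements given below. Stretches that hold matches are shown for YHB1, SOD1 and CCP1, of which the first fell and the others rose, so that the direction of the call can be read beside the sites. They are written 5′ to 3′ on the strand of the gene from the RefSeq R64 sequence, with matches in capitals, where TTAGTAA and AGGGG are the Yap1 element and the stress response element on the opposite strand. The search used this reference sequence and not that of W303, whose upstream DNA may differ. YHB1 at chrVII:959374-959523 (plus strand) holds first the Fzf1 element and then a pair of Yap1 elements. SOD1 at chrX:623115-623224 (minus strand) holds a stress response element and a Yap1 element. CCP1 at chrXI:567299-567418 (minus strand) holds the nearer of its 2 stress response elements, and the other, 580 to 576 bases before the start codon, lies outside the stretch shown.
YHB1: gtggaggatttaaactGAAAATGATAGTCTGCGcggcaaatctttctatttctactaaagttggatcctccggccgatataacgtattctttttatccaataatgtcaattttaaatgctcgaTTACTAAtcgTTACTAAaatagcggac
SOD1: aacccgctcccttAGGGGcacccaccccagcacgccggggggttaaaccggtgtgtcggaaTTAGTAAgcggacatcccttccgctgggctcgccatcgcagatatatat
CCP1: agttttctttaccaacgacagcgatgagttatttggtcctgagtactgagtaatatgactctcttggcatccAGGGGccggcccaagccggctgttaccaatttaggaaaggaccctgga

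The pair of Yap1 elements of YHB1 lay 407 to 401 and 397 to 391 bases before its start codon, and the Fzf1 element lay 514 to 498 bases before it, on the opposite strand. A pair or more of Yap1 elements occurred before 1 of the 9 genes, YHB1, which fell in snf2Δ, and before 0.816% of all genes searched. SOD1, with 1 Yap1 element, rose, and SOD2, CTA1 and SKN7, each with 1, did not pass the test, so among the 5 genes with the element 1 fell, 1 rose and 3 did not pass. The stress response element stood before 4 of the 9 genes (35.1% of all genes), of which SOD1 and CCP1 rose, GPX1 fell, and SOD2 did not pass. TATAAA stood before 2 of the 9 genes, SOD2 and CTA1 (56.4% of all genes), and no match to the Hap1 element was found in these windows (0.516% of all genes). No match of any of these elements was found before HYR1 or YAP1.

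**Figure D3:**
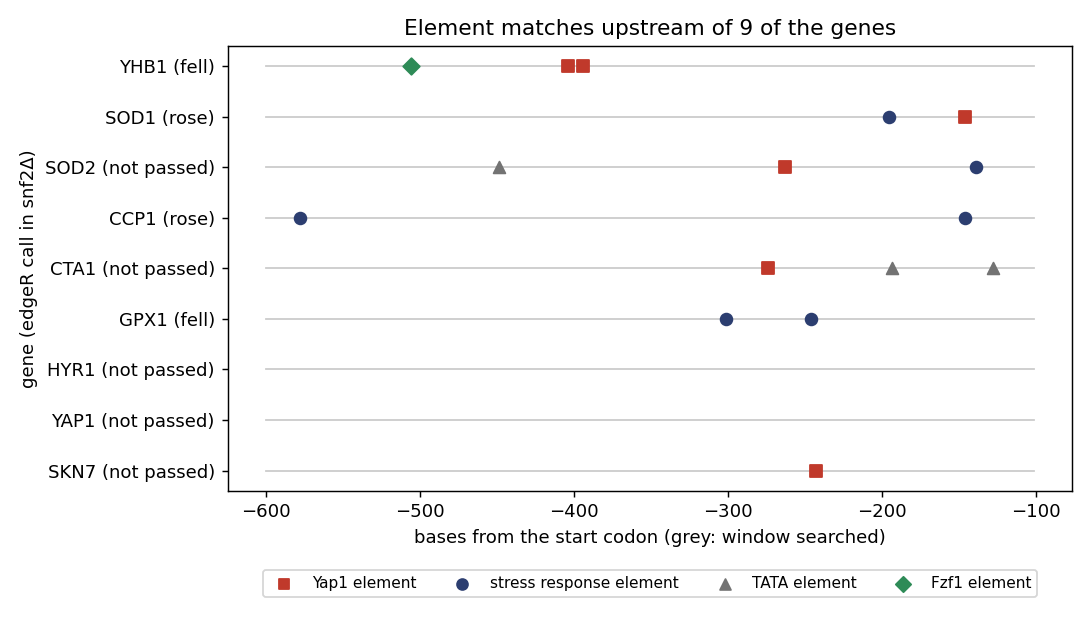
Matches to the searched elements upstream of 9 of the genes, placed by their distance in bases from the start codon, with the edgeR call of each gene in brackets. YHB1 has 2 Yap1 elements close together and the only Fzf1 element, and HYR1 and YAP1 have no match in the 500 bases searched.

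Of the superoxide dismutases, the gene of the cytosolic isozyme rose and that of the mitochondrial one did not pass. SOD1 (YJR104C, chromosome X, 622550 to 623014, minus strand) had 651, 871 and 761 CPM in the snf2Δ libraries, against 512, 518 and 544 CPM in wt, so the lowest snf2Δ library was above the highest wt library. This is a rise of 1.45-fold (log2 fold change 0.54 ± 0.14, SE, adjusted p = 0.00895), which no longer passed without snf2Δ replicate 2 (0.43, adjusted p = 0.0649). SOD2 (YHR008C, chromosome VIII, 122889 to 123590, minus strand) had 206, 255 and 231 CPM in snf2Δ, against 255, 236 and 238 CPM in wt, and the genotypes overlapped (log2 fold change −0.07, 95% interval −0.35 to 0.21, adjusted p = 0.696). The interval leaves room for a change of SOD2 in either direction, so equal levels were not shown.

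Whether isozymes of one reaction changed by the same factor was asked with their ratio inside each library, per kb of coding length, which does not depend on the scaling of libraries. SOD2 transcript per SOD1 transcript was 0.209, 0.194 and 0.201 in snf2Δ, against 0.329, 0.301 and 0.290 in wt. All snf2Δ ratios were lower than all wt ratios, with a difference of −0.61 on the log2 scale (0.657 times the wt ratio). An exact two-sided permutation test over the 6 libraries gave p = 0.1, the smallest p that 3 against 3 libraries allow, and adjustment over the 4 ratios examined left it at 0.1, as it did for each of the other ratios.

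CCP1 (YKR066C, chromosome XI, 566113 to 567198, minus strand), which encodes the heme peroxidase that draws electrons from cytochrome c, also rose. Its level was 384, 387 and 399.5 CPM in snf2Δ, against 176, 144 and 207 CPM in wt. The snf2Δ libraries were close together and all above the wt libraries. CCP1 averaged 389.9 ± 8.43 CPM in snf2Δ and 176 ± 31.6 CPM in wt (SD, n = 3 each), a rise of 2.22-fold (log2 fold change 1.15 ± 0.15, SE, adjusted p = 1.88e-05). CYC1, the gene of its electron donor, did not pass the test (0.27, adjusted p = 0.173).

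Of the catalases, CTT1 fell and CTA1 did not pass. CTA1 (YDR256C, chromosome IV, 968133 to 969680, minus strand), the peroxisomal catalase A, had 6.91, 9.19 and 5.72 CPM in snf2Δ, against 8.68, 10.6 and 10.9 CPM in wt. These values overlapped and the test did not pass (log2 fold change −0.46, 95% interval −1.001 to 0.07, adjusted p = 0.171), at 23 to 68 reads per library. CTT1, the cytosolic catalase T, had 15.4, 16.6 and 15.2 CPM in snf2Δ, against 81.6, 100.01 and 84.8 CPM in wt, with every snf2Δ library below every wt library (log2 fold change −2.49 ± 0.17, SE, adjusted p = 1.77e-08). The ratio of CTA1 to CTT1 per kb was 0.493, 0.606 and 0.417 in snf2Δ, against 0.117, 0.117 and 0.141 in wt. It was 4.01 times as high in snf2Δ (exact permutation test, p = 0.1), with CTT1 lower and CTA1 itself no higher.

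Of the glutathione peroxidase homologs, GPX1 and GPX2 fell and HYR1 did not pass. GPX2 (YBR244W, chromosome II, 707528 to 708016, plus strand) had 8.52, 5.47 and 6.71 CPM in snf2Δ, against 20.9, 25.3 and 22.9 CPM in wt, and fell 3.34-fold (log2 fold change −1.74 ± 0.22, SE, adjusted p = 2.00e-05) with no overlap. GPX1 (YKL026C, chromosome XI, 389380 to 389883, minus strand) had 11.97, 19.5 and 7.96 CPM in snf2Δ, against 23.3, 27.8 and 21.0 CPM in wt. It too was lower in every snf2Δ library, but its snf2Δ values were the most scattered of the 10 genes relative to their mean (52, 89 and 32 reads), and its fall of 1.80-fold (log2 fold change −0.85 ± 0.25, SE, adjusted p = 0.0175) no longer passed without snf2Δ replicate 1 (−0.77, adjusted p = 0.0874) or replicate 3 (−0.60, adjusted p = 0.0946). HYR1 (YIR037W, chromosome IX, 423128 to 423619, plus strand) had 130.1, 135 and 125 CPM in snf2Δ, against 113, 113 and 127 CPM in wt, which overlapped (log2 fold change 0.15, 95% interval −0.13 to 0.42, adjusted p = 0.408). Its product is known to oxidize Yap1, a role not examined in this strain.

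HYR1 was the main transcript of these homologs in both genotypes, and more so in snf2Δ. GPX1 per HYR1 transcript was 0.0906, 0.142 and 0.0629 in snf2Δ, against 0.202, 0.241 and 0.163 in wt. GPX2 per HYR1 transcript was 0.0667, 0.0417 and 0.0548 in snf2Δ, against 0.186, 0.227 and 0.183 in wt. Every snf2Δ ratio was below every wt ratio, with differences of −1.10 and −1.89 on the log2 scale (exact permutation test, p = 0.1 each). The coding sequences of the 3 genes share 59.9% to 70.3% of their bases, with GPX2 and HYR1 the most alike, and no run of identical bases longer than 23, so reads long enough to pass such a run can be told apart.

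**Figure D4:**
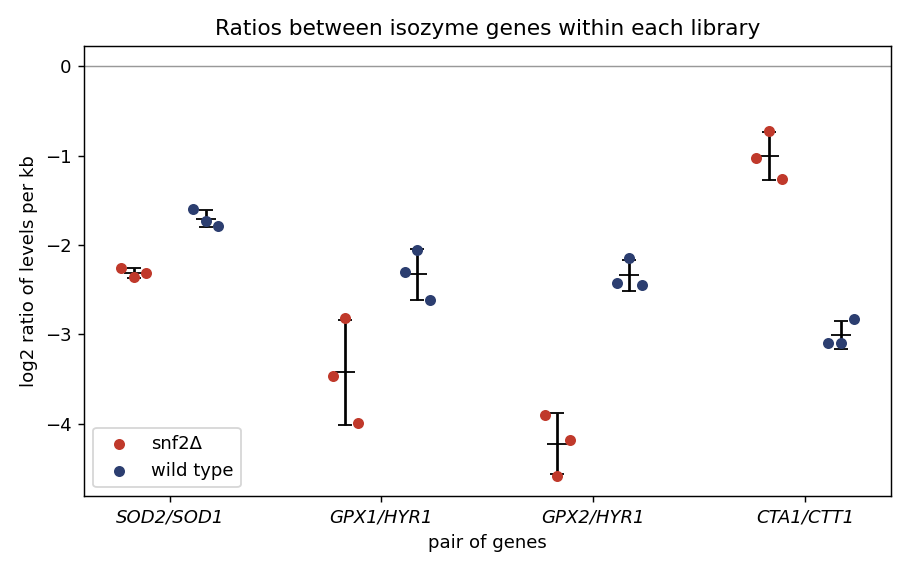
Log2 ratio of 2 genes of one reaction within each library, both per kb of coding length, with 1 point per library, the mean as a horizontal mark and the SD as a bar (n = 3 each), snf2Δ in red and wt in blue. The ratios SOD2/SOD1, GPX1/HYR1 and GPX2/HYR1 differ by −0.61, −1.10 and −1.89 log2 units (snf2Δ minus wt) and CTA1/CTT1 by 2.00, with no overlap between the genotypes in any of the 4 pairs.

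Neither transcription factor gene passed the test. YAP1 (YML007W, chromosome XIII, 253848 to 255800, plus strand) had 144, 138 and 128 CPM in snf2Δ, against 147, 156 and 156 CPM in wt, so all snf2Δ libraries were lower but by little (log2 fold change −0.16, 95% interval −0.43 to 0.11, adjusted p = 0.355). SKN7 (YHR206W, chromosome VIII, 512732 to 514600, plus strand) had 146, 153 and 182 CPM in snf2Δ, against 154, 168 and 203 CPM in wt, with overlap (−0.13, 95% interval −0.44 to 0.18, adjusted p = 0.534). Protein levels and the nuclear share of the factors were not measured.

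Per kb of coding length, the order of the genes differed at the top. In snf2Δ, SOD1 stood first at 1636 ± 237 CPM per kb, followed by CCP1 and SOD2 (359 ± 7.77 and 329 ± 35.5), which overlapped, then HYR1, SKN7, YAP1 and YHB1, GPX1 and GPX2, and last CTA1 at 4.70 ± 1.14 CPM per kb. The neighbours YAP1 and YHB1, and GPX1 and GPX2, also overlapped in snf2Δ. In wt, YHB1 stood first at 2257 ± 323 CPM per kb and SOD1 second at 1128 ± 36.6, followed by SOD2, HYR1, CCP1, SKN7, YAP1, GPX1 and GPX2, and CTA1 at 6.50 ± 0.78, and only GPX1 and GPX2 overlapped there. YHB1 thus made up 2.38 ± 0.19% of the summed level per kb of the 10 genes in snf2Δ and 51.1 ± 2.51% in wt, whereas SOD1 made up 57.1 ± 2.62% in snf2Δ and 25.7 ± 1.503% in wt (SD, n = 3 each). In CPM, the 10 genes summed to 1918 ± 145 in snf2Δ and 4154 ± 460 in wt, but without YHB1 the sum was 1836 ± 143 in snf2Δ and 1446 ± 73.2 in wt. Without YHB1 the summed level was thus higher in snf2Δ, where with it the sum was lower.

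**Figure D5:**
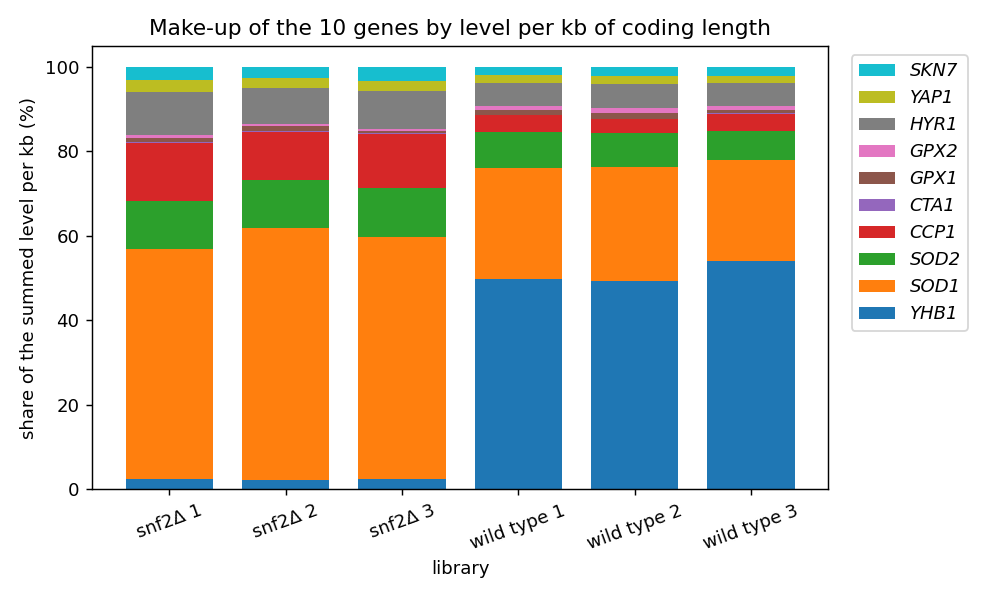
Share of each gene in the summed level per kb of coding length of the 10 genes, with 1 bar per library. YHB1 fills 2.16% to 2.54% of the snf2Δ bars, where SOD1 is the largest part, and 49.4% to 54.0% of the wt bars.

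Other genes of these pathways were counted from lists written with earlier results known, and the counts are descriptive. Of 8 genes listed as partners of the enzymes, 3 fell, 1 rose and 4 did not pass, beside 17.8% falls and 16.6% rises over all genes tested. The list also holds CTT1, itself a catalase gene, which fell, and the sulfite pump gene SSU1. Besides CTT1, the copper chaperone of Sod1, CCS1, fell to 93.6 ± 3.49 CPM in snf2Δ, against 160.4 ± 11.9 CPM in wt (log2 fold change −0.78 ± 0.13, adjusted p = 0.000279), so SOD1 and its chaperone gene moved in opposite directions. The mitochondrial NADH kinase gene POS5, which supplies NADPH in the matrix, rose (0.63 ± 0.13, adjusted p = 0.00201). GND1, an NADPH-producing dehydrogenase of the pentose phosphate pathway, fell (−0.51 ± 0.15, adjusted p = 0.0169), but not without snf2Δ replicate 1, snf2Δ replicate 2 or wt replicate 1 (adjusted p = 0.0597, 0.101 and 0.0607). The pentose phosphate enzyme ZWF1 (−0.16), the SOD2-related mitochondrial carrier MTM1 (−0.04) and the sulfite pump SSU1 (0.42) did not pass, although SSU1 did so without wt replicate 3 (adjusted p = 0.0187) and with upper quartile scaling (0.50, adjusted p = 0.0376).

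Thioredoxins, peroxiredoxins and glutaredoxins also remove peroxide or repair thiols, and they were listed together with related enzymes. This list had 10 rises and 0 falls among 19 genes, beside 16.6% rises and 17.8% falls over all genes tested. Some of its rises, those of MXR1 and MXR2 among them, lie outside the families named. The median log2 fold change of the list was 0.45, beside −0.02 over all genes. No fall was found at an unadjusted p under 0.05 either, nor by the DESeq2 Wald test or limma-voom. The rises numbered 7 without snf2Δ replicate 2 or without wt replicate 1, and 12 without wt replicate 3. Among the rises were the peroxiredoxins TSA1 (1.29 ± 0.15, adjusted p = 9.04e-06) and AHP1 (0.98 ± 0.20, adjusted p = 0.00124), the methionine sulfoxide reductases MXR1 (1.62 ± 0.14, adjusted p = 3.88e-07) and MXR2 (0.69 ± 0.16, adjusted p = 0.00308), the mitochondrial thioredoxin TRX3 (0.85 ± 0.16, adjusted p = 0.000616) and the glutaredoxin GRX1 (0.73 ± 0.15, adjusted p = 0.00167). GPX1 and GPX2, which are not in this list, fell, and 10 of its 19 genes rose. Of 8 further Yap1 targets, 7 were tested, of which 2 rose and 1 fell, beside the same 16.6% and 17.8% over all genes. The transporter ATR1 (1.01 ± 0.17) and the reductase GRE2 (0.68 ± 0.17) rose and GSH1, for the first step of glutathione synthesis, fell (−1.36 ± 0.15), with adjusted p = 0.000309, 0.00617 and 3.34e-06. GRE2 no longer passed without snf2Δ replicate 2 (adjusted p = 0.0518).

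Of 22 regulators of oxidative, nitrosative and peroxisomal genes, 4 rose and 6 fell (median −0.20), beside 16.6% rises and 17.8% falls over all genes tested. Only 2 rises were left without snf2Δ replicate 1, wt replicate 1 or wt replicate 2. MSN4 and MSN2, the factors of the stress response element, fell by 1.75 ± 0.13 and 0.84 ± 0.16 on the log2 scale (adjusted p = 6.80e-08 and 0.000918), the Yap1 relative CIN5 fell by 1.40 ± 0.18 (adjusted p = 2.29e-05), and SSK1, which receives phosphate from the same relay as Skn7, fell by 1.01 ± 0.14 (adjusted p = 3.56e-05). ADR1, an activator of peroxisomal genes that include CTA1, rose (2.14 ± 0.17, adjusted p = 1.18e-07), as did the hypoxic repressor ROX1 (0.64 ± 0.15, adjusted p = 0.00435). OAF1, another regulator of peroxisomal genes in the list, fell (−0.64 ± 0.16, adjusted p = 0.00688), opposite in direction to ADR1. Of 3 peroxisomal beta-oxidation genes, POX1 (2.00 ± 0.40, adjusted p = 0.00126) and POT1 (adjusted p = 0.000153) rose, both at low levels, with 6.03 ± 1.96 and 5.84 ± 2.61 CPM in snf2Δ, against 1.52 ± 0.47 and 0.50 ± 0.31 CPM in wt. FOX2, the most abundant of them, did not pass (0.08, adjusted p = 0.758), at 33.0 ± 2.31 CPM in snf2Δ and 31.3 ± 4.72 CPM in wt. No wt library held more than 4 reads of POT1, so its fold change is not given. FZF1, whose product is a known activator of YHB1, had 37.5, 38.7 and 33.8 CPM in snf2Δ, against 24.8, 22.9 and 29.7 CPM in wt, so the rise of FZF1 (0.50 ± 0.17, adjusted p = 0.0283) was opposite in direction to the fall of YHB1, and it was lost without any of 4 libraries, snf2Δ replicates 1 and 2 and wt replicates 1 and 2 (adjusted p = 0.0664, 0.104, 0.103 and 0.124). FZF1 was named for this role after its value was seen.

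Yhb1, Ccp1, Cta1 and Ctt1 carry heme. The list of heme synthesis and breakdown had 0 rises and 3 falls among 10 genes, and 7 did not pass (median −0.24). Over all genes tested there were 16.6% rises and 17.8% falls. The list had 1 rise without wt replicate 3. At an unadjusted p under 0.05, and by the DESeq2 Wald test and limma-voom, the count of rises was also 0. HEM2 and HEM3, early steps of heme synthesis, fell by 0.88 ± 0.13 and 0.69 ± 0.15 on the log2 scale (adjusted p = 0.000111 and 0.00183). The heme oxygenase HMX1, which breaks heme down, fell by 0.64 ± 0.18 (adjusted p = 0.0108), but not without snf2Δ replicate 1 or 3 (adjusted p = 0.0714 and 0.0682). HEM1, the first step of heme synthesis, was among the 7 genes that did not pass (−0.05, adjusted p = 0.789).

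The 5 features most like YHB1 over the 6 libraries, by the distance between log2 CPM centered on the wt mean and among features with at least 10 CPM on average, were YER053C-A (distance 0.570), the phosphate transporter gene PHO84 (0.724), the membrane stress protein gene HSP30 (1.03), ISF1 (1.07) and HMS1 (1.33). The log2 fold changes of the first 4 were −5.39 ± 0.27, −4.90 ± 0.21, −5.52 ± 0.19 and −4.61 ± 0.20 in that order (SE). HMS1 had 8, 3 and 2 reads in snf2Δ, against 242, 300 and 213 reads in wt, and its fold change is not given because snf2Δ counts were this low. HSP30 had 16.01 ± 3.72 CPM in snf2Δ and 738 ± 47.9 CPM in wt, and PHO84 had 6.51 ± 0.88 CPM in snf2Δ and 194 ± 37.0 CPM in wt.

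The genes beside the 10 genes moved in both directions. Of 20 nearest neighbours, 19 were tested, of which 6 rose, 4 fell and 9 did not pass, beside 16.6% rises and 17.8% falls over all genes tested. YHB1 has PHO81 1693 bases upstream, read away from it, which fell to 37.8 ± 3.37 CPM in snf2Δ, against 66.7 ± 8.45 CPM in wt (log2 fold change −0.82 ± 0.16, adjusted p = 0.000838). MIC26, 256 bases downstream and read toward it, rose (0.84 ± 0.16, adjusted p = 0.000652), so the neighbours of YHB1 moved in opposite directions and neither came near its −5.06. Beside genes that did not pass, GTT1, a glutathione transferase gene next to HYR1, rose (0.88 ± 0.13, adjusted p = 0.000116) and GIS4, next to YAP1, fell (−0.91 ± 0.16, adjusted p = 0.000335). None of the 10 genes overlaps another RefSeq gene, but the 1080 features with no RefSeq match could not be placed.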

How the data were processed

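RNA-seq was analysed from 3 snf2Δ and 3 wt samples, grouped and numbered by their labels. The extraction is unsettled, since the labels give hot phenol and poly(A) enrichment and the paper's methods a column kit. The submitters' processing notes list bcl2fastq 2.18, STAR 2.7.3a, RSEM 1.3.0 and the build sacCer3. The values deposited by the authors were raw counts per feature, neither normalized nor pooled. For strand-specific counting nothing is given in the sources used here, so antisense reads may not be separated.

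Of 7127 features, 6047 matched RefSeq genes of R64, on which sacCer3 is based, and took names, coding lengths and positions from it. With edgeR 4.0.16 in R 4.3.3, features were kept by filterByExpr, scaled by TMM, and tested by quasi-likelihood (glmQLFit without the legacy mode, glmQLFTest) with genotype as the only term and Benjamini-Hochberg adjustment over all genes. A gene rose or fell at an adjusted p under 0.05. SNF2 was left out of the counts of genes. The SE is the log2 fold change divided by the square root of F. Ratios used a pseudocount of 0.5 and exact permutation. The procedure was tested on simulated data. Total counts of 4134546 to 6708036 per library set the precision, and intervals cover the spread of these samples only.

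The members, lists and tests were chosen with earlier results of these data known. The text names the 10 genes, SNF2, up to 6 called genes per list by smallest adjusted p, the neighbours of each gene and the 5 features most like YHB1. Members of short lists and neighbours that did not pass, and called neighbours on which no result turned, were counted. Of these, only CYC1, ZWF1, MTM1, SSU1, HEM1, FOX2, STE3 and SAG1 were named. FZF1 and OAF1 were named beyond the 6 called genes of their list. The alternatives were DESeq2 size factors, upper quartile and total count scaling, no filter, the Wald test of DESeq2 1.42.0, a minimum of 10 CPM in 3 or more libraries, limma-voom (limma 3.58.1), the legacy quasi-likelihood fit, a replicate block and each library left out, and for the ratios pseudocounts of 0 and 5. The motif search used Python with Biopython, and the upstream region of GPX2 is not reported here.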

Additional observations from a re-analysis of the deposited data

How the results depend on the processing

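The 10 genes gave 149 values under 15 alternatives, of which 144 kept their direction and side of the threshold, 3 lost their call (SOD1 and GPX1, as given above) and 2 changed sign. The sign changes were those of SOD2, to 0.0099 with upper quartile scaling and 0.012 without snf2Δ replicate 1, where leaving out 1 library gave −0.15 to 0.012. CTA1 gave no value with the minimum of 10 CPM. Leaving out 1 library gave 4 to 5 called members, of which 1 to 2 rose and 2 to 3 fell. For 43 other named genes, which leave out HEM1, OAF1, FOX2, STE3 and SAG1, 641 values were read. Of these, 623 kept direction and side, 13 lost the call, 3 gained it and 2 changed sign. Both sign changes were of MTM1 (0.044 with upper quartile scaling and 0.0061 without wt replicate 1, with −0.13 to 0.0061 over the libraries left out). Upper quartile scaling gave 1204 rises and 808 falls over all genes (59.8% rises), against 938 and 1003 with TMM (48.3% rises). The 4 ratios kept their direction under every alternative run. Same-numbered libraries did not deviate together in every pair (r = 0.15, −0.04 and 0.13), and differently numbered ones had r from −0.20 to 0.13. With 3 libraries per group these values cannot settle whether the numbers pair the libraries. With the replicate block, 2058 genes passed, 1941 without it, 5 of the 10 genes passed, and the ratios kept their differences (exact sign-flip permutation test, p = 0.25, the smallest that 3 pairs allow). Depth limits CTA1, GPX1 and GPX2, at 23 to 143 reads per library.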

Other observations

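The Fzf1 element was found in the searched window of 4 genes of the 6004, YHB1, SSU1, DDI2 and DDI3. The element was described from targets of Fzf1, so these matches are no independent finding. DDI2 and DDI3, cyanamide hydratase genes that are copies of one another, whose reads may be split or mixed, had 3.80 ± 0.46 and 3.20 ± 1.40 CPM in snf2Δ, against 1.44 ± 0.21 and 1.47 ± 1.00 CPM in wt. DDI2 rose (log2 fold change 1.38 ± 0.40, adjusted p = 0.0145), but not without wt replicate 2 (adjusted p = 0.0526), and DDI3 did not pass (1.05, adjusted p = 0.123) except without wt replicate 3 (1.78, adjusted p = 0.0288), and stood at 0.61 without snf2Δ replicate 2 (adjusted p = 0.494). SSU1 was higher by 0.42 without passing (adjusted p = 0.0751). YHB1 was therefore the only one of the 4 genes with a lower level in snf2Δ. These genes were looked up after the motif search.

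Over all genes tested, 604 had a Yap1 element in the searched window, of which 14.1% rose and 20.7% fell, beside 16.6% and 17.8% of all genes. With 2 or more elements there were 43 genes tested, of which 10 rose and 6 fell, with a median log2 fold change of 0.13. YHB1 was among the 6 that fell. These counts are a description with no test.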
